A study of Mus musculus with 30 samples.

Results

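The comparison described here set mouse embryonic stem (ES) cells in G2 against cells in late G1, both kept in doxycycline (DOX), and rests on 6 of the 30 samples of the series. They are the 3 libraries labelled late G1 and the 3 labelled G2 with DOX, chosen by their labels alone. The cells are the line EKOiE-Ccna-Gfp of strain 129/Ola, grown in serum medium with LIF. The line is an Esrrb knockout that carries a DOX-inducible Esrrb transgene and a Ccna2-Gfp reporter. Each of these 6 libraries, kept in DOX, thus comes from cells whose Esrrb is supplied by the transgene. Cells were sorted on that reporter, and RNA was read with a stranded mRNA kit and counted over exons and over introns. For a side by side reading, 6 further libraries of the same phases taken 24 h after DOX withdrawal were used, out of 18 RNA libraries in all. Nothing in the labels tells if replicate libraries stem from different cultures. The p-values therefore measure the spread between these samples, which may be technical.

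During the cell cycle, genes for DNA replication are switched on by E2F factors around the G1/S boundary. Genes for the spindle, the kinetochore and mitotic kinases are switched on in G2 with the help of B-Myb and FoxM1. Many promoters of the latter genes hold CHR elements (cell cycle genes homology region) and CCAAT boxes. Histone mRNAs of the replication-dependent kind accumulate in S phase and end in a stem-loop in place of a poly(A) tail. Mouse ES cells divide fast and have a short G1. Cyclin A2, the product of Ccna2, binds CDK2 in S phase and CDK1 in G2 and is degraded in mitosis.

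Before any gene is described, 1 property of the libraries has to be given. For each of the 153 pairs of RNA libraries, the mean squared difference of their counts over genes was expressed in units of counting error, so that 1 means that 2 libraries differ by no more than counting. In exons 6 pairs lay between 1.05 and 3.82, and the other pairs between 10.6 and 110.1. Each of these 6 near-identical pairs joins libraries with different phase labels and the same replicate number. The libraries labelled late G1 replicate 1 and G2 replicate 1 with DOX are such a pair, at 1.13 in exons and 1.39 in introns, while the other 14 pairs among the 6 libraries stood at 11.1 to 42.4 in exons and 7.74 to 218 in introns. Among those other pairs the intronic value did not follow the spread per gene. Late G1 replicate 2 and G2 replicate 3 stood at 218 with a standard deviation of log2 differences of 0.35. Late G1 replicate 1 and G2 replicate 2 stood at 26.9 with 0.37, and the near-identical pair had 0.12. The library labelled late G1 replicate 2 was near-identical to the one labelled early G1 replicate 2 (1.05), and G2 replicate 3 to early G1 replicate 3 (1.43). After withdrawal, late G1 replicate 1 was near-identical to early G1 replicate 1 (3.82), G2 replicate 2 to early G1 replicate 2 (1.12) and late G1 replicate 3 to G2 replicate 3 (1.42). The labels do not account for this, no library was moved to another group, and which labels hold cannot be told from these values. What is called pair 1, 2 or 3 below is the G2 library minus the late G1 library of that replicate number.

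**Figure D1:**
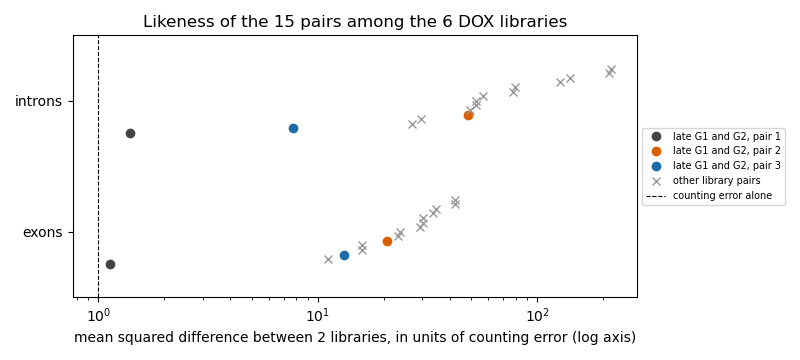
Mean squared difference between 2 libraries in units of counting error (x, log axis) for the 15 pairs among the 6 DOX libraries, in exons and introns; filled points are late G1 and G2 libraries of equal replicate number and the dashed line is counting error alone. Pair 1 lies at 1.13 in exons and 1.39 in introns, and every other pair lies at 7.74 or above.

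Over 5473 genes with a mean of at least 5 on the log2 CPM scale (CPM, counts per M, where M is mega), the exonic log2 difference had a standard deviation (SD) of 0.07 in pair 1, 0.29 in pair 2 and 0.19 in pair 3. No gene of these differed by more than 1 log2 unit in pair 1, against 87 in pair 2 and 13 in pair 3. The difference between the labels thus lies mainly in pairs 2 and 3. Numbers of genes called are therefore given with all libraries and without pair 1, the latter in a fit of 8 libraries: pairs 2 and 3 with DOX and pairs 1 and 2 after withdrawal. Where no fit is named below, the exonic change of a single gene comes from this 8-library fit. That fit was chosen after seeing the data, and its criterion removes the pairs with the smallest differences, so its calls have no independent check. It keeps 2 residual degrees of freedom.

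In the planned edgeR test on all 18 RNA libraries, with the replicate number as a block, no gene passed an adjusted p of 0.05 among 14092 tested in exons (0% higher and 0% lower). At an unadjusted p under 0.05, 268 genes were higher in G2 (1.9%) and 263 lower (1.87%). In the 8-library fit 37 genes of 13848 were higher in G2 (0.267%) and 22 lower (0.159%) at an edgeR adjusted p under 0.05. Of the 37, 19 belong to 5 lists of mitotic genes that hold 110 tested genes, and none of those 110 was called lower. Of the 22, 18 are replication-dependent histone genes and 2 belong to the 2 lists of replication genes (61 tested), of which none was called higher. The lists were chosen with earlier results of these data known, so these counts and the list shares below are descriptions and not independent support. With pairs 2 and 3 alone (4 libraries, 1 residual degree of freedom), 160 of 13181 genes were called higher (1.21%) and 141 lower (1.07%).

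The windows before the start sites of some of these genes show the motifs named above. Shown are the 4 mitotic genes called higher, the 2 histones called lower and the 2 other genes called lower with the lowest p in the 8-library fit, among genes with 1 window in the RefSeq table (GRCm38.p6). Each run is the 250 bases before the annotated start, 5′ to 3′ on the gene's strand. Capitals mark 3 kinds of match, searched on both strands. A CHR match was the word TTTGAA, with TTCGAA allowed as its variant. A CCAAT box was the 5 letters of its name. An E2F match was TTCCCGC, with TTGGCGC allowed as its variant; the latter can overlap a CCAAT box read on the other strand.
Ckap2l, chr2:129297213-129297462, minus strand: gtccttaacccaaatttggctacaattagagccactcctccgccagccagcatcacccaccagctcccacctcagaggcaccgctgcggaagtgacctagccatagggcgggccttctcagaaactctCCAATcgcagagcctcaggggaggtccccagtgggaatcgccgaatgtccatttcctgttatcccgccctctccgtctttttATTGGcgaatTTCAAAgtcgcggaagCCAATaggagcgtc
Aurka, chr2:172370571-172370820, minus strand: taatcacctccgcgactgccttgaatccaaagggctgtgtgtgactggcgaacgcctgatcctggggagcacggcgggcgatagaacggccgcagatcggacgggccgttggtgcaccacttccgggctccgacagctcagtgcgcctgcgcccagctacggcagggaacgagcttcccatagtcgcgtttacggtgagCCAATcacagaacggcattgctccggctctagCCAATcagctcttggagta
Plk1, chr7:122159185-122159434, plus strand: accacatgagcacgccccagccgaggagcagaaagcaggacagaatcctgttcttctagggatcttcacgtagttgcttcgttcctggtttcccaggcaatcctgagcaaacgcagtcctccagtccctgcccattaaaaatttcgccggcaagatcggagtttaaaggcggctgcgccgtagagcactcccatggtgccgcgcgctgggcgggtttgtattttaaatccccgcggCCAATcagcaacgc
Kif18a, chr2:109280488-109280737, plus strand: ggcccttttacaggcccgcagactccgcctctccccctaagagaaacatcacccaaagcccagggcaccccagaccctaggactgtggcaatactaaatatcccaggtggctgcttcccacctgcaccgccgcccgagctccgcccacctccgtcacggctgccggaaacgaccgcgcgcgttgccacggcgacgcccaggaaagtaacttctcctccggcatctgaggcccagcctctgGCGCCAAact
Hist1h1b (H1f5 in the table), chr13:21780626-21780875, minus strand: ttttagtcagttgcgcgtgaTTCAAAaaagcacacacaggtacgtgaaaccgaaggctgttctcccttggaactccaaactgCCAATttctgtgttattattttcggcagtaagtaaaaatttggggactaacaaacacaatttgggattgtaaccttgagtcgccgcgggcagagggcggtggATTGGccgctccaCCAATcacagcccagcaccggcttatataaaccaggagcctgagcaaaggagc
Hist1h1e (H1f4 in the table), chr13:23622559-23622808, minus strand: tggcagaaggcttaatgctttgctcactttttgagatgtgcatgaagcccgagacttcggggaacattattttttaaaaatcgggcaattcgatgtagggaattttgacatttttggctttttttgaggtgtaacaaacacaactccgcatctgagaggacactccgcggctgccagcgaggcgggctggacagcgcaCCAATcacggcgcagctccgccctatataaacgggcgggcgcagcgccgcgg
Slfn9, chr11:82991831-82992080, minus strand: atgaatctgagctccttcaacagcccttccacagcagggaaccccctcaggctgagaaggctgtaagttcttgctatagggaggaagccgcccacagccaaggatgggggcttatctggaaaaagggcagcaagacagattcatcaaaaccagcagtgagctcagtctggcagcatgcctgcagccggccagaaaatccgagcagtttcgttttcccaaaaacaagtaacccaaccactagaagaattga
Cdc6, chr11:98907901-98908150, plus strand: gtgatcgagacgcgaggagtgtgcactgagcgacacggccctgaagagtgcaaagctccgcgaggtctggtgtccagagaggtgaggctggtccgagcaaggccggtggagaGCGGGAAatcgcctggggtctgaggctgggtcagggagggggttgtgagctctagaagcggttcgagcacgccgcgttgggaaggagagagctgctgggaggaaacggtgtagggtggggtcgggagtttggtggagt

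The Ckap2l window holds 1 CHR match and 3 CCAAT boxes, the Aurka window 2 CCAAT boxes and the Plk1 window 1. The Kif18a window holds 1 E2F match and neither of the other motifs. Both histone windows hold CCAAT boxes, 3 in Hist1h1b, which also has 1 CHR match, and 1 in Hist1h1e. The Cdc6 window holds 1 E2F match and the Slfn9 window no match. Over all 32851 windows of the table, 33.8% held a CCAAT box, 17.1% a CHR match, 5.62% an E2F match and 6.02% both a CHR match and a CCAAT box. Over the 14344 windows of the tested genes these shares were 35.6%, 12.2%, 9.72% and 4.85%. Among the 35 windows of the 31 matched genes called higher (of 37), 68.6% held a CCAAT box, 37.1% a CHR match and 34.3% both. All 17 windows of the 16 matched histone genes called lower (of 18) held a CCAAT box, and 70.6% held a CHR match. Over all 55 histone windows these shares were 85.5% and 45.5%. CCAAT boxes were also common in lists with 1 or no call: 56.5% of windows for origin licensing, 51.3% for the replication fork and 66.7% for homologous recombination. CHR matches were in 21.7%, 12.8% and 6.67% of these windows. E2F matches were found in 39.1% of 23 windows for origin licensing and firing and in 20.5% of 39 for the replication fork, but also in 42.9% of 7 for cohesin, 37.5% of 16 for condensin and chromosome structure and 26.7% of 15 for homologous recombination. These shares are descriptions of letters, and a match is not a site of binding.

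Ccna2, the gene behind the reporter (mm9 chromosome 3, 36463786 to 36470918), stood at 409.6, 296 and 336 CPM in the libraries labelled late G1 replicates 1, 2 and 3, the order used throughout, and at 421, 462 and 388 CPM in those labelled G2. The G2 library was the higher of each pair, but the groups overlapped, since late G1 replicate 1 lay above G2 replicate 3. The difference was 0.29 ± 0.15 log2 (± is the standard error, SE, for log2 values) with all libraries (edgeR adjusted p = 1) and 0.42 ± 0.16 without pair 1 (edgeR adjusted p = 0.5). Esrrb, the orphan nuclear receptor that the transgene encodes (mm9 chromosome 12, 87702066 to 87862578), stood at 323, 286 and 341 CPM in late G1 and 304, 262 and 254 CPM in G2, overlapping and lower in each pair. Its difference of -0.21 ± 0.12 with all libraries did not pass (edgeR adjusted p = 1). The counts do not separate transgene reads from reads of the endogenous locus.

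Among the kinases and cyclins that start mitosis, 4 were called higher without pair 1 and Cdk1, Ccnb1 and Ccnb2 did not pass. Of 23 genes in the list of mitotic cyclins, CDK1 and their control, 20 had a higher estimate with all libraries, with a median of 0.16 log2 against 0.00 over all genes, and the list's median was 0.01, 0.42 and 0.05 in pairs 1, 2 and 3. In the 8-library fit 4 of 23 were called higher (17.4%, against 0.267% of all genes) and none lower. Aurka, the kinase that matures centrosomes (mm9 chromosome 2, 172181689 to 172196070), stood at 63.8, 36.3 and 50.8 CPM in late G1 and 65.9, 134 and 107 CPM in G2. All G2 libraries lay above all late G1 libraries, though by little in pair 1, and the change was 1.47 ± 0.18 log2 without pair 1 (edgeR adjusted p = 0.00494) and 0.93 ± 0.39 with it (edgeR adjusted p = 1). Plk1, the polo kinase that drives mitotic entry, stood at 35.4, 34 and 46.9 CPM against 38.2, 58.7 and 91.3 CPM in G2. Here the groups overlapped, since the G2 library of pair 1 lay below late G1 replicate 3, and the change without pair 1 was 0.88 ± 0.12 (edgeR adjusted p = 0.00632). Ccnf, the F-box protein cyclin F, and Bora, an activator of Aurora A towards Plk1, were the others called, at 0.82 ± 0.13 and 0.75 ± 0.13 log2 (edgeR adjusted p = 0.0154 and 0.0199).

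Genes named for the mitotic state itself were less uniform. Cdk1, the kinase that drives mitosis, stood at 309, 116 and 193 CPM in late G1 and 326, 444 and 284 CPM in G2. Its estimate of 1.24 ± 0.28 log2 without pair 1 did not pass (edgeR adjusted p = 0.1), and the late G1 library of pair 1 lay above G2 replicate 3. Ccnb1, encoding cyclin B1, the partner of CDK1, stood at 607, 310.3 and 405 CPM against 633, 837 and 552 CPM, with 0.94 ± 0.23 log2 (edgeR adjusted p = 0.135). Its paralog Ccnb2 stood at 186, 162 and 154 CPM against 187, 191 and 159 CPM, a difference of 0.14 ± 0.12 that did not pass either (edgeR adjusted p = 0.888). Pkmyt1, the kinase that inhibits CDK1, had the lowest estimate of the list: 20.8, 21.8 and 22.4 CPM in late G1 against 18.8, 16.9 and 17.6 CPM in G2, groups that did not overlap, at -0.36 ± 0.15 log2 (edgeR adjusted p = 0.592).

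**Figure D2:**
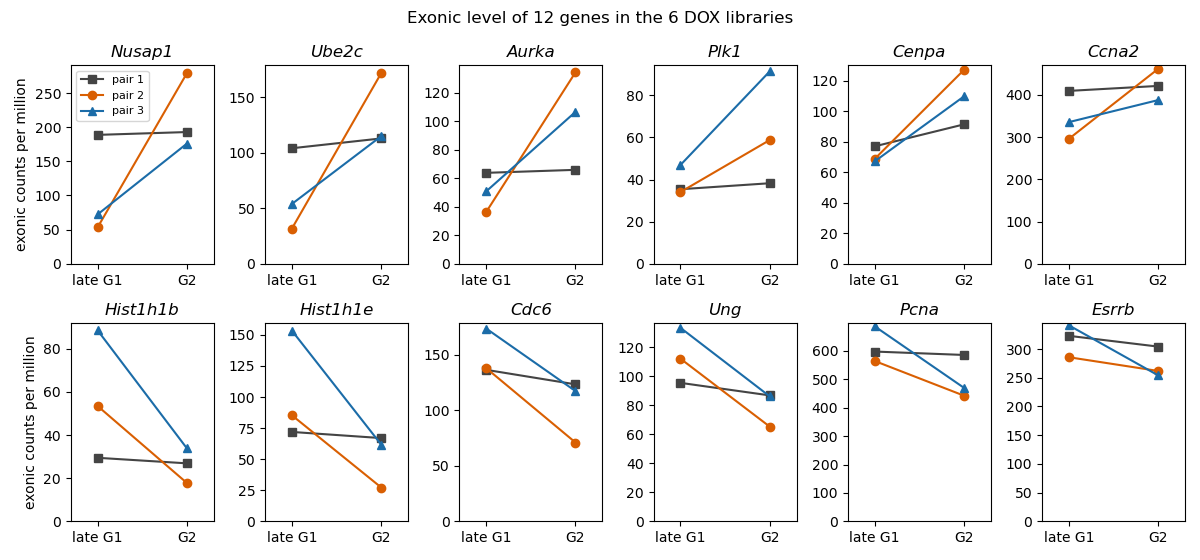
Exonic CPM (y, from 0) of 12 genes in the 6 DOX libraries, with a line joining the late G1 and the G2 library of each replicate number. The lines of pair 1 are nearly flat, whereas those of pairs 2 and 3 rise for Nusap1, Ube2c, Aurka, Plk1 and Cenpa and fall for Hist1h1b, Hist1h1e, Cdc6 and Ung.

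Kinetochore and checkpoint genes, whose products attach chromosomes to the spindle and delay anaphase until all are attached, were higher in G2 in 23 of 24 estimates, with a median of 0.37 with all libraries and 0.57 without pair 1. The list's median was 0.04, 0.77 and 0.35 in pairs 1, 2 and 3. In 10 of the 24 every G2 library lay above every late G1 library, where 3.04% of all genes did. The 8-library fit called 5 of 24 higher (20.8%, against 0.267% of all genes), Cenpa, Cenpe, Bub3 and Sgol2 among them.

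Cenpa, the centromeric histone H3 variant, stood at 77, 68.7 and 67.1 CPM against 91.4, 127 and 109.7 CPM and was the member whose pair 1 difference, 0.25 log2, was the largest of the list. Its change without pair 1 was 0.80 ± 0.13 (edgeR adjusted p = 0.0155). Bub3, a checkpoint protein, stood at 216, 103 and 129 CPM against 222, 283 and 206 CPM. The late G1 library of pair 1 lay above G2 replicate 3, and the change without pair 1 was 1.06 ± 0.19 (edgeR adjusted p = 0.021). Cenpe, the kinetochore motor, and Sgol2, a protector of centromeric cohesin, changed by 0.97 ± 0.18 and 0.88 ± 0.16 log2 (edgeR adjusted p = 0.0284 and 0.0319). The highest estimate of the list was that of Cenpf, a large kinetochore protein, at 1.52 ± 0.31 log2, which did not pass (edgeR adjusted p = 0.0524), with 314, 130.3 and 221 CPM in late G1 and 319.7, 513 and 467 CPM in G2. Spc24, a subunit of the NDC80 complex, had the lowest estimate, -0.06 ± 0.14.

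Spindle motors and cytokinesis genes were the list with the most calls among the mitotic ones. All 29 had a higher estimate in G2, with a median of 0.36 with all libraries and 0.55 without pair 1, and the median was 0.03, 0.78 and 0.44 in pairs 1, 2 and 3. In pairs 2 and 3 together 28 of 29 were higher in both, against 28.2% of all genes. In pair 1 22 of 29 were higher, against 49.3% of all genes. A list outside the cell cycle was one-sided there too, with 67 of 80 cytosolic ribosomal protein genes lower. In 13 of 29 every G2 library lay above every late G1 library, where 3.04% of all genes did. The 8-library fit called 8 higher (27.6%, against 0.267% of all genes) and none lower.

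Nusap1, a protein that bundles spindle microtubules around chromosomes (mm9 chromosome 2, 119444033 to 119475896), had the largest change of them. It stood at 189, 53.5 and 72.3 CPM in late G1 and 193, 279 and 176 CPM in G2, and the late G1 library of pair 1 was above G2 replicate 3. Its change was 1.82 ± 0.27 log2 without pair 1 (edgeR adjusted p = 0.0104) and 0.99 ± 0.60 with all libraries (edgeR adjusted p = 1). Kif18a, the kinesin that damps chromosome oscillations, stood at 59.8, 45 and 50.9 CPM against 61.1, 123 and 88 CPM, groups that did not overlap. Its change was 1.12 ± 0.15 log2 without pair 1 (edgeR adjusted p = 0.00632) and 0.72 ± 0.25 with all libraries, where it did not pass. Ckap2l, a spindle protein of neural progenitors, stood at 47.8, 33.5 and 38.8 CPM against 48.3, 79.1 and 73.1 CPM, again apart. It changed by 1.07 ± 0.14 without pair 1 (edgeR adjusted p = 0.00494) and by 0.67 ± 0.29 with all libraries, where it did not pass.

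Aspm, a protein of the spindle pole, stood at 228, 166 and 179 CPM in late G1 and 241, 373 and 321 CPM in G2. It changed by 1.01 ± 0.17 log2 without pair 1 (edgeR adjusted p = 0.0159). Tpx2, which activates Aurora A on the spindle, stood at 304, 232 and 232 CPM against 313, 441 and 374 CPM. It changed by 0.81 ± 0.15 without pair 1 (edgeR adjusted p = 0.0227). For both, every G2 library was above every late G1 library. Hmmr, Spag5 and Kif2c, a hyaluronan receptor that also acts in spindle assembly, a kinetochore and spindle protein and a microtubule-depolymerising kinesin, were the others called, at 0.82 ± 0.14, 0.69 ± 0.13 and 0.69 ± 0.14 log2 (edgeR adjusted p = 0.0183, 0.0424 and 0.0456). Kif11, the motor that separates spindle poles, had 334, 176 and 225 CPM against 343, 466 and 346 CPM and did not pass (1.01 ± 0.21 log2; edgeR adjusted p = 0.0626). The lowest estimate of the list was that of the kinesin Kif15, 0.14 ± 0.14.

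In the list for the anaphase-promoting complex, the ubiquitin ligase that starts anaphase, and for securin and separase, the calls fell on 2 regulators. Of 19 genes, 15 had a higher estimate with all libraries, with a median of 0.08. Without pair 1, 2 of 19 (10.5%, against 0.267% of all genes) were called higher. Ube2c, the ubiquitin-conjugating enzyme of the anaphase-promoting complex (mm9 chromosome 2, 164595428 to 164598402), stood at 104, 31.8 and 53.9 CPM in late G1 and 113, 172 and 115 CPM in G2. The groups did not overlap, and the change was 1.74 ± 0.29 log2 without pair 1 (edgeR adjusted p = 0.0159). With all libraries it was 1.03 ± 0.59, which did not pass. Fzr1, the co-activator Cdh1, stood at 97.1, 60.2 and 66.3 CPM against 110.0, 149.7 and 105 CPM and changed by 0.99 ± 0.15 (edgeR adjusted p = 0.0116). The other co-activator, Cdc20, had 218, 194 and 212 CPM against 218, 291 and 312 CPM, also without overlap, and did not pass (0.57 ± 0.12 log2; edgeR adjusted p = 0.0668). Anapc7, a core subunit, had the lowest estimate, -0.17 ± 0.13.

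No member of the lists for condensin, chromosome structure and lamina (15 genes) or cohesin (12 genes) was called in the 18- or the 8-library fit. The 4-library fit called 4 of the condensin list higher, against 1.21% of all genes. The medians of these lists with all libraries were 0.08 and 0.07. Top2a, the topoisomerase that untangles sister chromatids, had the highest estimate of them, 1.22 ± 0.33 log2 without pair 1 (edgeR adjusted p = 0.201), with 1472, 554 and 945 CPM in late G1 and 1507, 2042 and 1386 CPM in G2. Its late G1 values alone spanned a wider range than the mean difference, with replicate 1 at the level of the G2 libraries. Mki67, the proliferation marker, stood at 892, 709.8 and 913 CPM against 930.4, 1062 and 1146 CPM, at 0.45 ± 0.20 (edgeR adjusted p = 0.649).

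**Figure D3:**
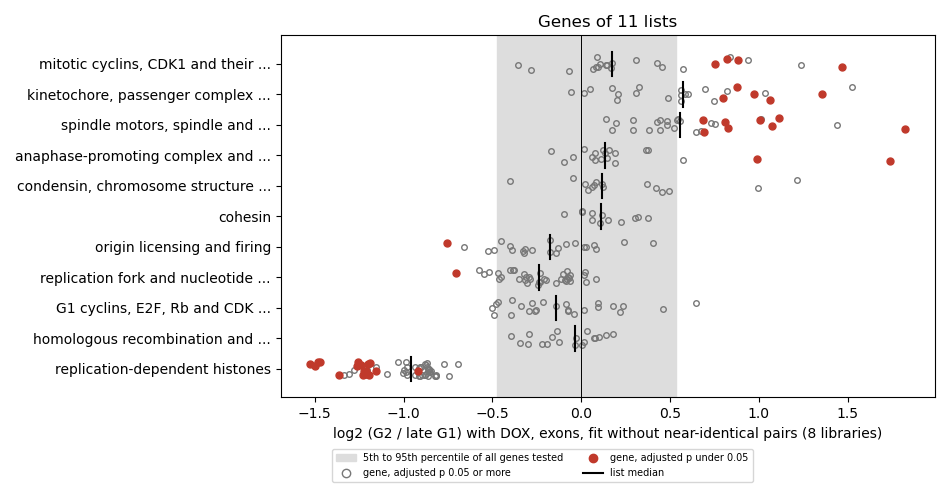
Log2 difference, G2 minus late G1 with DOX in exons (x), of each gene of 11 lists in the 8-library fit; red points passed an adjusted p of 0.05, black bars are list medians and the grey band is the 5th to 95th percentile of all genes, -0.47 to 0.54. Red points lie to the right in the first 4 lists (4, 5, 8 and 2 genes) and to the left for histones (18 genes).

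Outside the lists, 18 further genes were called higher without pair 1, named because they were called. Several are also known in mitosis or centrosome function. Arl6ip1, a membrane-shaping protein of the endoplasmic reticulum, had 415, 183 and 190.3 CPM in late G1 and 428, 592 and 372 CPM in G2 (1.33 ± 0.18 log2; edgeR adjusted p = 0.00632). Kpna2, an importin alpha, had 613, 283 and 396 CPM against 641, 938 and 615 CPM (1.18 ± 0.24; edgeR adjusted p = 0.0498). Hyls1, a centriole protein needed for cilia (mm9 chromosome 9, 35368405 to 35377654), had 35.8, 17.9 and 19.3 CPM against 37.9, 57.3 and 39.2 CPM (1.34 ± 0.16; edgeR adjusted p = 0.00494). Hyls1 was also among the 5 higher genes with the lowest p when all libraries were used, where it did not pass (0.87 ± 0.26; edgeR adjusted p = 1).

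The remaining ones were Arhgef39, Prr11, Depdc1a, Arhgap19, Parpbp, Fam83d, Knstrn, Cdca2, Pif1, Fam64a, Trim59, Tenm4, Camk1d, Gas2l3 and G2e3, with changes from 0.59 ± 0.12 (G2e3) to 1.40 ± 0.18 log2 (Arhgef39). Knstrn encodes a kinetochore and spindle protein, Fam83d a spindle protein that recruits casein kinase, Cdca2 a phosphatase-targeting protein of anaphase chromatin and Pif1 a DNA helicase. Depdc1a stood at 32.1, 25.4 and 22.9 CPM in late G1 against 35, 62.9 and 43.2 CPM in G2, and Arhgap19, a GTPase-activating protein, at 188, 129 and 131 CPM against 189, 259 and 233 CPM. In both the groups did not overlap, and pair 1 differed least.

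Replication-dependent histones formed the largest group of lower genes. All 60 tested members (of 62 listed) had a lower estimate in G2, with a median of -0.57 log2 with all libraries and -0.96 without pair 1, against 0.00 over all genes. Their median was -0.07, -1.35 and -0.66 in pairs 1, 2 and 3. In pair 1 57 of 60 were lower, against 50.7% of all genes. Such one-sidedness in pair 1 was not particular to histones. Of 80 cytosolic ribosomal protein genes 67 were lower there, with list medians of -0.02, 0.11 and -0.12 in pairs 1, 2 and 3. In 48 of 60 every G2 library lay below every late G1 library, where 2.63% of all genes did. In the 8-library fit 18 of 60 were called lower (30%, against 0.159% of all genes). In the 4-library fit, with 1 residual degree of freedom, 57 were called lower, against 1.07% of all genes. Many of these genes are near-identical copies among which reads can be shared or assigned more than once, so the 60 are far fewer independent measurements, and an mRNA kit that selects poly(A) reads such transcripts only in part.

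Of the H1 linker histones, which bind DNA between nucleosomes, Hist1h1b, Hist1h1e and Hist1h1d were called lower without pair 1. Hist1h1b (H1.5; mm9 chromosome 13, 21871700 to 21872494) stood at 29.4, 53.4 and 88.5 CPM in late G1 and 26.9, 17.7 and 33.8 CPM in G2. Its change was -1.48 ± 0.15 log2 without pair 1 (edgeR adjusted p = 0.00224) and -0.97 ± 0.30 with all libraries (edgeR adjusted p = 1), and late G1 replicate 1 lay below G2 replicate 3. Hist1h1e (H1.4; mm9 chromosome 13, 23713645 to 23714427) stood at 71.9, 85.3 and 153 CPM against 66.9, 27.2 and 61.7 CPM, without overlap. It changed by -1.47 ± 0.19 without pair 1 (edgeR adjusted p = 0.00494). Hist1h1d (H1.3) stood at 67.5, 98.2 and 144 CPM against 63.8, 28.5 and 71.9 CPM and changed by -1.36 ± 0.26 without pair 1 (edgeR adjusted p = 0.0369). With all libraries Hist1h1e and Hist1h1d changed by -0.93 ± 0.36 and -0.85 ± 0.37, and neither passed.

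For the H2B copies the values were alike. Hist1h2bb stood at 412, 479 and 586 CPM in late G1 and 377, 168 and 289 CPM in G2, and Hist1h2bg at 472, 519 and 671 CPM and 433, 187 and 326 CPM. They changed by -1.26 ± 0.21 and -1.25 ± 0.20 log2 without pair 1 (edgeR adjusted p = 0.0159 and 0.0116). With all libraries they changed by -0.78 ± 0.32 and -0.78 ± 0.30, and neither passed. The lowest estimate belonged to Hist3h2bb-ps, -1.52 ± 0.23 (edgeR adjusted p = 0.0112), beside Hist3h2ba, -1.50 ± 0.22 (edgeR adjusted p = 0.00967). The estimate nearest to 0 was that of Hist1h1a, -0.69 ± 0.19 (edgeR adjusted p = 0.22). Slbp, which encodes the protein that binds the histone stem-loop, stood at 248, 215 and 231 CPM against 254, 158 and 166 CPM and did not pass (-0.46 ± 0.12; edgeR adjusted p = 0.186).

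Genes of DNA replication had medians closer to 0 than the histones. In the list for the replication fork and nucleotide supply, 35 of 38 estimates were lower, with a median of -0.17 log2 with all libraries and -0.24 without pair 1, and the list's median was -0.03, -0.14 and -0.29 in pairs 1, 2 and 3. In pairs 2 and 3 together 26 of 38 were lower in both and 0 higher in both, against 28.3% and 28.2% of all genes. Only Ung was called without pair 1 (2.63% of the list, against 0.159% of all genes called lower). Ung, the uracil-DNA glycosylase (mm9 chromosome 5, 114580443 to 114589330), stood at 95.5, 112 and 133 CPM in late G1 and 86.8, 65.3 and 86.1 CPM in G2, without overlap, and changed by -0.70 ± 0.13 log2 (edgeR adjusted p = 0.0219). With all libraries it was among the 5 lower genes of lowest p, at -0.51 ± 0.15 (edgeR adjusted p = 1).

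Pcna, the sliding clamp of the fork, stood at 598, 565 and 687 CPM against 586, 443 and 470.3 CPM. The G2 library of pair 1 lay above late G1 replicate 2, and the difference of -0.45 ± 0.13 without pair 1 did not pass (edgeR adjusted p = 0.283). Rrm2, the small subunit of ribonucleotide reductase, stood at 159, 182 and 237 CPM against 149, 123 and 170.2 CPM (-0.52 ± 0.12; edgeR adjusted p = 0.101). Its partner Rrm1 differed by -0.06 ± 0.14 (edgeR adjusted p = 0.988).

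Among 23 genes of origin licensing and firing, 17 estimates were lower, with a median of -0.10 with all libraries and -0.18 without pair 1. Cdc6, which loads the MCM helicase (mm9 chromosome 11, 98769202 to 98785256), was the 1 called without pair 1 (4.35%, against 0.159% of all genes called lower). It stood at 136, 138 and 173 CPM in late G1 and 123, 70.9 and 117 CPM in G2, without overlap. Its change was -0.76 ± 0.13 log2 without pair 1 (edgeR adjusted p = 0.0165). The MCM subunit Mcm6 stood at 440.2, 484 and 521 CPM against 435, 321 and 397 CPM, also without overlap, and did not pass (-0.49 ± 0.13; edgeR adjusted p = 0.192). Dbf4, the activating subunit of the kinase that fires origins, went the other way with the highest estimate of the list, 192, 200.1 and 197 CPM against 198, 286 and 240.2 CPM, which did not pass (0.40 ± 0.13; edgeR adjusted p = 0.339). Cdt1 and its inhibitor Gmnn differed by -0.14 ± 0.12 and -0.08 ± 0.15 (edgeR adjusted p = 0.874 and 0.978).

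Of 25 genes of G1 cyclins, E2F, Rb and CDK inhibitors none was called in the 18- or the 8-library fit, while the 4-library fit called Rbl1 higher and Cdc25a lower, and 18 estimates were lower, with a median of -0.09. Ccne1, encoding cyclin E1, which acts at the G1/S boundary, stood at 213, 216 and 282 CPM in late G1 and 205, 205 and 208 CPM in G2 (-0.25 ± 0.14; edgeR adjusted p = 0.765). E2f1, an activator of replication genes, stood at 22.6, 29.5 and 27.1 CPM against 22.4, 17 and 23.3 CPM (-0.49 ± 0.16; edgeR adjusted p = 0.379). Rbl1, the Rb relative p107, had the highest estimate, 0.65 ± 0.16 (edgeR adjusted p = 0.131), and Ccnd2, a D-type cyclin, the lowest, -0.50 ± 0.19 (edgeR adjusted p = 0.522). In homologous recombination and Fanconi anaemia genes (19) the median was -0.07 and none was called.

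Outside the lists, Tcf19 and Slfn9 were the lower genes called without pair 1. Tcf19, a forkhead-associated protein induced at the G1/S boundary, stood at 20.7, 10.9 and 15.4 CPM against 18, 6.18 and 7.74 CPM (-0.92 ± 0.18; edgeR adjusted p = 0.0425). Slfn9, of the Schlafen family, stood at 17.2, 29.7 and 46 CPM against 16.7, 12.6 and 24.3 CPM (-1.06 ± 0.17; edgeR adjusted p = 0.0117). The groups overlapped in both: 2 late G1 libraries for Tcf19 and 1 for Slfn9 lay within the range of the G2 libraries.

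With all libraries the genes of lowest p were mostly others, and none of them passed (edgeR adjusted p = 1 for each). The higher ones were Fam196b, Efcab12, Lgals12, Hyls1 and Fbxl17, and the lower ones Gas2l1, Batf, Romo1, Ung and Zfp341. Gas2l1, which links actin and microtubules, stood at 12.7, 13 and 13.1 CPM in late G1 and 10.4, 7.64 and 7.89 CPM in G2, without overlap (-0.58 ± 0.15 log2). Fbxl17, an F-box protein, stood at 10.9, 8.57 and 9.79 CPM against 13.7, 12.5 and 15.6 CPM (0.51 ± 0.15). Fam196b, Efcab12, Lgals12 and Batf stood at under 4 CPM in all 6 libraries.

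The comparison after withdrawal shares no library with the one above. There the near-identical G2 and late G1 libraries are those of replicate 3, and each pair kept holds a library near-identical to one labelled early G1. In the 8-library fit 60 genes were higher in G2 after withdrawal (0.433%) and 52 lower (0.376%). Of the 37 genes called higher with DOX 24 were called higher after withdrawal too, which is 64.9% of the first and 40% of the second list. Of the 22 called lower 20 were also called lower, which is 90.9% and 38.5%. Both sets of calls come from 1 fit and share its estimate of the spread, so the overlap is a description and not independent support.

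**Figure D4:**
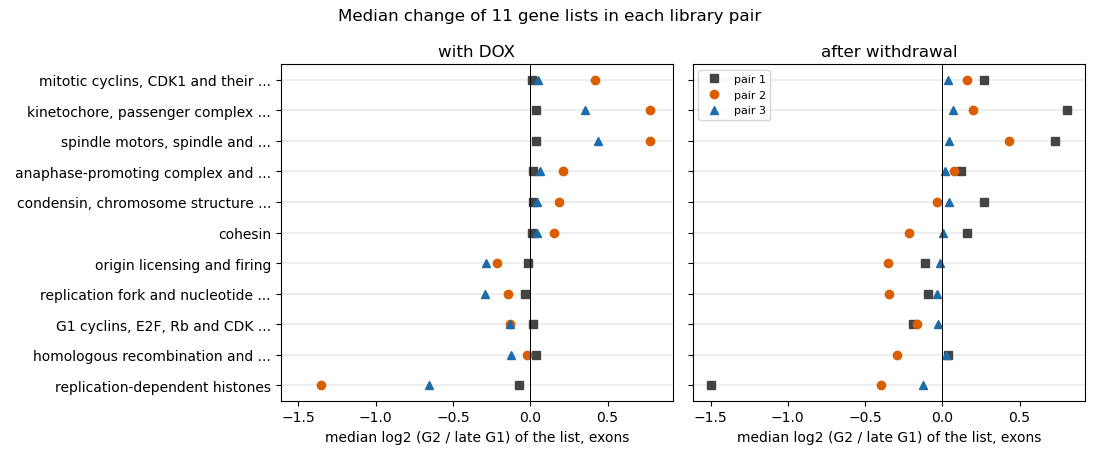
Median log2 difference, G2 minus late G1 in exons (x), of 11 gene lists in each library pair with DOX (left) and after withdrawal (right). With DOX the medians of pair 1 lie between -0.07 and 0.04, and after withdrawal pair 3 lies nearest to 0 for most lists (histones -0.13).

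Nusap1 after withdrawal stood at 43.1, 69.2 and 179 CPM in late G1 and 277, 173 and 206 CPM in G2, a change of 2.00 ± 0.28 log2 (edgeR adjusted p = 0.00749), and Hist1h1e at 109.5, 159 and 122 CPM and 26.2, 73.7 and 111 CPM, a change of -1.58 ± 0.18 (edgeR adjusted p = 0.00454). The median of the spindle list was 0.55 in both states, that of kinetochore genes 0.57 with DOX and 0.51 after withdrawal, and that of histones -0.96 and -0.97. The difference of the phase change between the 2 DOX states passed for no gene with all libraries (219 at an unadjusted p under 0.05, 1.55% of 14092) or without near-identical pairs (0 of 13848; 430 at an unadjusted p under 0.05). Trim59, a ubiquitin ligase of the TRIM family, shows how far single genes can differ without a call. With DOX it stood at 107, 89.1 and 79.2 CPM in late G1 and 108, 155 and 133 CPM in G2 (0.77 ± 0.12 log2), and after withdrawal at 94.9, 119 and 129 CPM and 101, 121 and 148 CPM (0.05 ± 0.11; edgeR adjusted p of the difference = 0.799 without near-identical pairs).

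Intronic counts, which can come from unspliced RNA, were tested in the same way. Of 14075 genes none passed with all libraries (302 higher, 2.15%, and 256 lower, 1.82%, at an unadjusted p under 0.05), and none of 13910 without pair 1. Spindle genes had 23 of 29 higher estimates in introns with a median of 0.17 log2, and the replication fork list 35 of 38 lower with a median of -0.12. The medians for mitotic cyclins and kinetochore genes were 0.15 and 0.11. Aspm had the highest intronic estimate of the spindle list without pair 1, with 24.8, 18.8 and 24.2 CPM in late G1 and 26.5, 50.7 and 36.7 CPM in G2 (0.98 ± 0.20; edgeR adjusted p = 0.283). Nusap1 introns stood at 27.5, 15.2 and 16 CPM against 29.2, 32.3 and 22 CPM (0.75 ± 0.19; edgeR adjusted p = 0.691).

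Of the 5 higher and 5 lower genes of lowest intronic p, Stra8, a gene of meiotic entry, stood at 10.2, 7.68 and 8.11 CPM in late G1 and 14.4, 15.9 and 17.4 CPM in G2, without overlap (0.87 ± 0.17 log2; edgeR adjusted p = 0.713). The others were Ankrd34b, Aspg, Bdnf and Suclg1 on the higher side and Ddx55, Alg12, Hsbp1l1, Fkbp6 and Cpq on the lower side (edgeR adjusted p = 1). Ddx55, a DEAD-box RNA helicase, stood at 59.6, 38.7 and 51.6 CPM against 32.5, 25.4 and 22.7 CPM, without overlap, and is a gene whose intronic count differed in pair 1 as well. It passed in the fit of the 6 libraries alone (-0.91 log2; edgeR adjusted p = 0.00612). With pairs 2 and 3 alone, Armc4 and Lama1 were called higher in introns (0.015% of 13327) and none lower.

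The test of exonic minus intronic change asks whether mature RNA changed more than unspliced RNA. It passed for none of 12516 genes with all libraries (0%) and none of 12289 without near-identical pairs (345 at an unadjusted p under 0.05). In the second fit the median of exonic minus intronic change was 0.37 for the spindle list and 0.42 for kinetochore genes, against 0.01 over all genes, and -0.08 for the replication fork. For Aurka the exonic change exceeded the intronic by 1.08 ± 0.23 log2 and for Ube2c by 1.15 ± 0.27 (edgeR adjusted p = 1 for each). The genes of lowest p with all libraries were Fbxl17, Fxyd5, Pygo1, Cmtm2a and Itgb3, none of which passed.

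**Figure D5:**
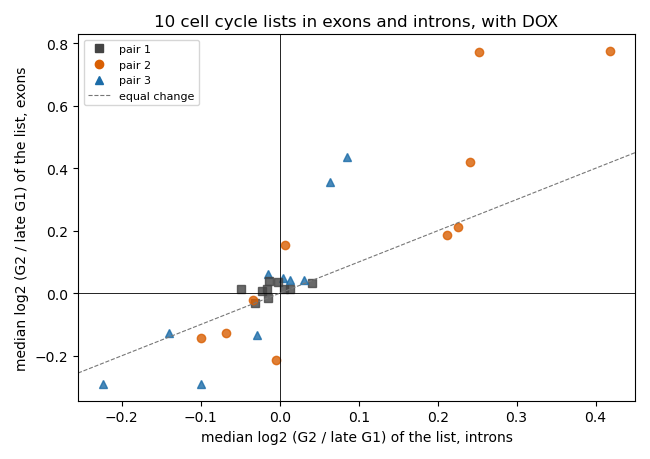
Median log2 difference, G2 minus late G1 with DOX, of 10 cell cycle lists (histones left out) in introns (x) and exons (y), for each library pair; the dashed line marks equal change. In pairs 2 and 3 the spindle and kinetochore lists lie above the line, at exonic medians of 0.78 and 0.77 in pair 2 against intronic medians of 0.42 and 0.25.

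Among genes outside the cell cycle, the median was 0.10 for 19 naive pluripotency genes (16 higher), -0.01 for core pluripotency, 0.02 for formative genes, -0.01 for cytosolic ribosomal proteins and for the respiratory chain and 0.00 for mitochondrial ribosomal proteins. None of them was called in the 18- or the 8-library fit, and the 4-library fit called Ndufa4l2 of the respiratory chain list lower. Nanog, a naive pluripotency factor, stood at 176, 314 and 280.1 CPM in late G1 and 187, 365 and 315 CPM in G2, with both libraries of pair 1 below the other 4. Pou5f1, the core factor Oct4, stood at 1471, 1412 and 1378 CPM against 1450.3, 1383 and 1295 CPM. The 8 ES cell markers summed to 5250.7 to 5768 CPM in late G1 and 5249 to 5936 CPM in G2, with none at 0. Fibroblast and feeder markers (7 of 13 tested) summed to 487 to 507 CPM against 360.3 to 494 CPM, primitive endoderm markers (12 of 13) to 548 to 731 against 545 to 754 CPM and 2-cell-like markers to 121 to 310 against 115 to 433 CPM. Mesendoderm (3.78 to 4.82 against 3.73 to 4.55 CPM), neural (143 to 167 against 140 to 177 CPM) and trophoblast markers (70.5 to 92.5 against 68.4 to 103 CPM) also overlapped between the phases; their part in the results was not tested. None of these markers was called in exons or introns in the 18- or the 8-library fit. The 2-cell-like markers, genes of a rare state resembling the early embryo, had a median of 0.24 log2 with all libraries (4 of 6 higher) and 0.41 without pair 1 (5 of 6 higher). The 4-library fit called 3 of 6 higher, against 1.21% of all genes: Zscan4c, Zscan4d and Zscan4f. These are close paralogs that can share reads. Among neural markers the 4-library fit called Tubb3 higher and Nes lower, and in introns Lama1 of the primitive endoderm list higher. In such bulk samples fewer cells of a type and less RNA per cell cannot be told apart.

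Exonic totals were 11.8 to 16.8 M counts in late G1 and 11.1 to 18.8 M in G2, and intronic totals 8.44 to 9.52 and 6.1 to 10.4 M. Tex14 took 4.36 to 11% of the intronic counts and Filip1l 0.189 to 6.47%.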

How the data were processed

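Deposited exonic and intronic read counts per gene (20300 and 17916 genes, with RefSeq accessions and mm9 coordinates per the file headers) were used for 18 mRNA-seq libraries. The submitters' processing notes name CASAVA 1.8, Bowtie and DESeq2; no source used here names the counting tool or its strand setting. The deposited tables hold whole counts, not normalized by the authors. Gene symbols turned into dates (27) were restored through their RefSeq accession.

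Counts were tested with edgeR 4.0.16 (R 4.3.3): TMM factors, filterByExpr, quasi-likelihood test, 6 group means plus the replicate number as a block over all 18 libraries, and Benjamini-Hochberg adjustment over all genes, called at 0.05. Exonic totals of the 6 libraries were 11.1 to 18.8 M (M, mega), and the median standard error of a log2 difference was 0.14. Each standard error given was derived from the test, as the absolute log2 difference divided by the square root of the edgeR F statistic. Same-numbered libraries were paired by the rule that defined the comparison. Deviations from the group means of same-numbered late G1 and G2 libraries correlated at 0.62, 0.21 and 0.44 for replicates 1, 2 and 3 in exons (0.51, 0.21 and 0.35 in introns). Libraries of different numbers were not compared in this way, so these values are no test of the pairing. Those for replicate 1 come from the near-identical libraries. The fit without near-identical pairs used a term for each library pair. Exonic minus intronic change was fitted with both counts in 1 model with a block for each library. CPM were computed with TMM-scaled library sizes and log2 CPM with a prior count of 2. The likeness of 2 libraries was the mean squared Pearson residual of their counts over genes with at least 20 counts in the 2 libraries together. Tex14 and Filip1l were left out of it in exons and introns.

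Genes named are those called or with the lowest p (up to 12 in each direction in exons, 5 where none passed), called members of the lists or their extremes and most abundant members, and Ccna2 and Esrrb. Extremes, well-known members and the promoters shown were picked after values were seen. The members and lists were chosen with earlier results of these data known. Alternatives were DESeq2 1.42.0, RLE factors, no filter, no block, subsets of libraries and leaving out each library. Fits were tested on simulated data. ChIP-seq peaks were not used, and 1 gene is counted in its list but not reported here by name. Figures used matplotlib.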

Additional observations from a re-analysis of the deposited data

Results flagged for a closer look

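The 133 genes picked from the calls, the lowest p and the lists were checked for opposite signs in all pairs of the 2 DOX states. In 5 of them, every G2 library was lower than its late G1 library with DOX and higher after withdrawal. The share of all genes with such signs was not computed, so these 5 are not shown to exceed it. The difference between the 2 states was tested and passed for none of them (edgeR adjusted p = 1 for each), and 1 pair in each state is near-identical. Esrrb, the gene of the transgene, differed by -0.09, -0.13 and -0.43 log2 in pairs 1, 2 and 3 with DOX and by 0.28, 0.25 and 0.07 after withdrawal, where its exons stood at 160.1, 162 and 173 CPM in late G1 and 195, 193 and 183 CPM in G2, a difference between the states of -0.42 ± 0.17 log2. Romo1, a mitochondrial membrane protein, differed by -0.24, -0.38 and -0.38 with DOX and 0.27, 0.05 and 0.13 after withdrawal, a difference of -0.49 ± 0.13. Lrp2, an endocytic receptor, gave a difference between the states of -0.26 ± 0.24. Batf, a transcription factor of the AP-1 family, and Ttc16 gave -1.82 ± 0.50 and -2.10 ± 0.62, and both stood at under 2 CPM in all 12 libraries. Batf, Romo1 and Ttc16 were named because they had the lowest p for this difference, so their opposite signs are no independent sign of it.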

How the results depend on the processing

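With all libraries, the number of genes passing for G2 against late G1 with DOX stayed at 0 in exons without the replicate block (174 genes at an unadjusted p under 0.05, against 531 with it), with DESeq2 (451), with RLE factors (528), without a filter (624), in the 9 DOX libraries (855) and in the 6 libraries of the comparison (1134). Leaving out 1 library or 1 replicate number gave 0 to 35 genes in exons, the 35 (8 higher and 27 lower) without replicate 1 in all groups, and 0 in introns. Without near-identical pairs, a choice made after seeing the data, the number was 59 with edgeR and 49 with DESeq2 (36 higher and 13 lower), and 112 for the comparison after withdrawal. It was 301 with pairs 2 and 3 alone, where 1 residual degree of freedom makes the spread poorly known. In introns 1 gene passed in the 6 libraries alone and 2 with pairs 2 and 3 alone. The comparison after withdrawal, the difference between the DOX states and exonic minus intronic change gave 0 genes with RLE factors, without the block used and with each library left out, and the first 2 also with DESeq2 and without a filter.

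The medians of the 9 cell cycle lists kept their sign in every alternative and moved by less than their SD over pairs. Leaving out libraries moved the histone median between -0.92 and -0.27, the spindle median between 0.22 and 0.58, the kinetochore median between 0.18 and 0.64 and that of mitotic cyclins between 0.05 and 0.24. The ranges were -0.24 to -0.08 for the replication fork and -0.23 to -0.07 for licensing. No scaling moved the median of all genes by 0.1 log2. The main limit is the libraries: pair 1 carries almost no difference, the late G1 library of pair 2 and the G2 library of pair 3 are each near-identical to a library labelled early G1, as is 1 library of each withdrawal pair kept, and the cause was not tested.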

Other observations

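Among the 19 immediate-early genes, which respond to growth factors and handling, no member was called with DOX in the 18- or the 8-library fit. Ier2 was called lower with pairs 2 and 3 alone, and Egr1 was called lower after withdrawal in the 8-library fit. Their exonic median was -0.10, whereas in introns (11 tested) it was 0.18. Fos, a subunit of AP-1, stood at 25.1, 22.3 and 18.3 CPM in late G1 and 27.6, 25.8 and 27.1 CPM in G2 in exons. Heat shock and ER stress genes (15) had a median of 0.01 and no call in these fits.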
